A study of Rattus norvegicus with 24 samples.

Results

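Ntrk3, Igf1r and Fgfr2 are 3 growth factor receptor genes of rat chromosome 1, and their transcripts were followed here in the hippocampus of rats bred for opposite responses to novelty. Their symbols were matched to Ensembl IDs through the chromosome 1 genes of the study's annotation table. All 3 symbols were found, so the genes described are 3 of the 32883 in the count table. On the Rnor6 assembly (Ensembl v88 positions, gene spans), Ntrk3 (ENSRNOG00000018674) spans bases 139890560 to 140262503 of chromosome 1 and is read from the minus strand. Igf1r (ENSRNOG00000014187) spans bases 128924966 to 129206516 on the plus strand, and Fgfr2 (ENSRNOG00000016374) bases 200590953 to 200696928 on the minus strand. Each is annotated as protein coding, and a count covers reads over the exons of the whole gene.

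The 3 genes encode receptor tyrosine kinases, which sit in the cell membrane and act in pairs. When a growth factor binds outside the cell, the paired receptors phosphorylate each other and a shared set of adaptors inside it. These adaptors feed the Ras and MAP kinase cascade and the PI3 kinase and Akt cascade, which govern survival, growth and plasticity of neurons and glia. Ntrk3 encodes TrkC, the preferred receptor of neurotrophin-3, Igf1r encodes the receptor for insulin-like growth factors, and Fgfr2 encodes a receptor for fibroblast growth factors that is known in brain mainly from glial cells. Ntrk3 also gives rise to transcripts without the kinase domain, and Fgfr2 to alternative forms that bind different ligands, and reads summed over a gene do not tell these forms apart.

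Whole hippocampus of 24 F0 rats (generation F37) was sequenced as poly-A RNA, with 6 males and 6 females of the bHR (bred High Responder) line and 6 males and 6 females of the bLR (bred Low Responder) line. The rats received no treatment, and the labels place 1 male and 1 female in each of 12 families, although the series description counts 24 families. Labelled ages were 151 to 165 days in males and 188 to 192 days in the females used, older than the range in the series description, and the sexes were dissected on different days, so sex, age and day cannot be told apart. A bHR female (replicate 3), with an RNA integrity number (RIN) of 6.3, is marked on its label as failing quality control and was left out here, so that 23 rats were used. In these the total LocoScore, the locomotor score for which the lines were bred, ran from 1533 to 2949 in bHRs and from 23 to 101 in bLRs, as labelled. In 4 of the 23 rats, 3 bHRs and 1 bLR, the labelled total differs from what its lateral and rearing parts add up to, and the added parts reach 69 at most in bLRs.

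Counted library sizes, in units of 1e6 reads, ran from 16.82 to 28.44, and the TMM scaling factors ran from 0.689 to 1.35. A symbol was found for 11 of the 59 cell type markers looked for, and none of the 6 listed for dentate and CA neurons was among them, so the dissection could be checked only in part. Rbfox3, a neuronal marker, was at 8.28 to 64.7 CPM (reads of the gene per 1e6 counted reads, after TMM scaling) and Gfap, an astrocyte marker, at 104 to 741 CPM. Folr1, a marker of choroid plexus, was at 2.39 to 55.1 CPM, and Tcf7l2, a marker of thalamus, at 1.26 to 11.6 CPM. Fewer cells of a type and less RNA per cell cannot be told apart in such tissue.

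Levels of the 3 receptors differed more between rats of a subgroup than between the subgroups. Values are CPM after TMM scaling. CPM are not divided by transcript length, so levels are compared between rats and not between genes. Replicate numbers name rats within a subgroup, and intervals on counts cover counting error alone.

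Ntrk3 had between 37 and 384 reads per rat. In bHR males its level was 2.84 CPM at the lowest, 4.72 CPM at the median and 7.00 CPM at the highest. The 5 bHR females used were at 11.6, 3.67, 2.34, 9.65 and 3.99 CPM. bLR males ran from 3.75 CPM over a median of 4.53 CPM to 8.52 CPM, and bLR females from 4.39 CPM over 6.97 CPM to 13.9 CPM. All 4 subgroups overlapped, and the 4 highest rats were females of both lines. Among bHR females replicates 1 and 5 stood apart from the other 3, which did not reach 4 CPM. The subgroup means fell in the order bLR female (7.98 ± 3.88 CPM, SD, n = 6), bHR female (6.25 ± 4.10 CPM, SD, n = 5), bLR male (5.56 ± 2.11 CPM, SD, n = 6) and bHR male (4.64 ± 1.52 CPM, SD, n = 6). No neighbours in this order differed beyond their spread (exact permutation test on log2 CPM, two-sided, lowest p = 0.351).

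Igf1r was counted at few reads, from 5 to 117 per rat, which limits its precision. The 5 reads of bLR male replicate 4 have an exact Poisson interval of 1.62 to 11.7 reads, and the 117 reads of bHR female replicate 1 one of 96.8 to 140 reads (95%). bHR males ran from 0.556 CPM over a median of 1.05 CPM to 2.23 CPM. The 5 bHR females were at 3.77, 1.64, 0.821, 1.84 and 0.734 CPM. bLR males ran from 0.360 CPM over 0.995 CPM to 1.84 CPM, and bLR females from 1.05 CPM over 1.43 CPM to 2.86 CPM. The ranges of all 4 subgroups overlapped, and no bLR female was below 1 CPM, while each other subgroup held rats below it. The order of the means was bHR female (1.76 ± 1.23 CPM, SD, n = 5), bLR female (1.71 ± 0.724 CPM, SD, n = 6), bHR male (1.19 ± 0.649 CPM, SD, n = 6) and bLR male (1.06 ± 0.548 CPM, SD, n = 6). Neighbours in this order did not differ beyond their spread (exact permutation test, two-sided, lowest p = 0.169).

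Fgfr2 had 309 to 1405 reads per rat and the narrowest range, with the highest rat 2.56-fold above the lowest, against 5.95-fold for Ntrk3 and 10.48-fold for Igf1r. These folds include counting error, which is largest for Igf1r. The coefficient of variation left in the lineage model beyond counting error was 0.254 for Ntrk3, 0.232 for Igf1r and 0.208 for Fgfr2. bHR males ran from 21.9 CPM over a median of 25.6 CPM to 29.5 CPM. The 5 bHR females were at 34.6, 22.2, 19.5, 38.6 and 22.6 CPM. bLR males ran from 19.8 CPM over 23.6 CPM to 43.6 CPM, and bLR females from 17.0 CPM over 23.1 CPM to 43.4 CPM. The bHR males lay within a narrow range, and each of the other 3 subgroups held 1 or 2 rats well above the rest. The means were 28.1 ± 11.6 CPM in bLR females (SD, n = 6), 27.5 ± 8.50 CPM in bHR females (SD, n = 5), 26.2 ± 8.90 CPM in bLR males (SD, n = 6) and 25.6 ± 2.78 CPM in bHR males (SD, n = 6). No neighbours in this order differed (exact permutation test, two-sided, lowest p = 0.792), and over the 9 tests of neighbours for the 3 genes every Benjamini-Hochberg adjusted p was 0.987.

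**Figure D1:**
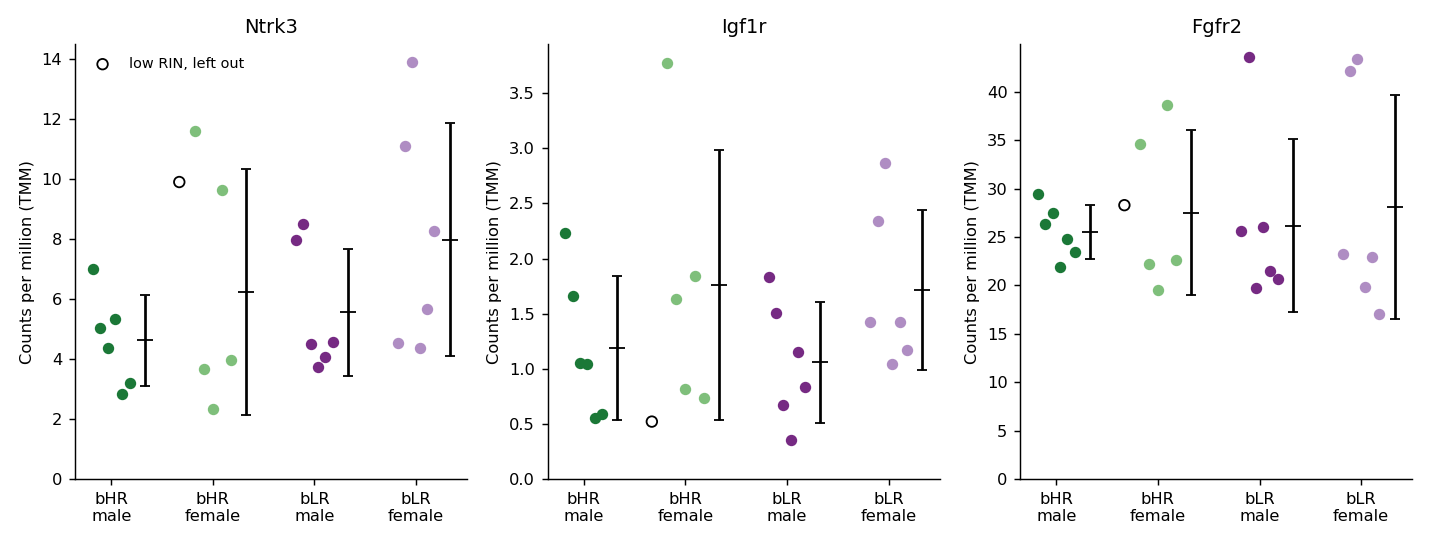
Level of Ntrk3, Igf1r and Fgfr2 (y axis, CPM after TMM scaling, from 0) in each rat, by subgroup (x axis). Filled points are the 23 rats used, bars are the mean ± SD of each subgroup, and the open circle is the bHR female left out for low RIN. The subgroups overlap for every gene, and in both female subgroups some rats lie well above the others, as the Ntrk3 values of 11.6 and 13.9 CPM do.

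The lineage comparison asked whether breeding for high or low locomotor response was accompanied by a difference in these transcripts. None of the 3 receptors differed between bLRs and bHRs (edgeR quasi-likelihood test, adjusted for sex and for the shares of ribosomal and intergenic reads, FDR < 0.10), where 1.34% of the 13838 genes tested did. None had an unadjusted p under 0.05 either, against 9.96% of all genes. All 3 genes passed the filter on low counts. For Ntrk3 the Log2FC of bLRs vs. bHRs was 0.17 ± 0.17 (SE, FDR = 0.813), with a 95% interval from -0.19 to 0.52. For Igf1r it was -0.24 ± 0.19 (SE, FDR = 0.736), with an interval from -0.62 to 0.15. For Fgfr2 it was 0.01 ± 0.14 (SE, FDR = 0.991), with an interval from -0.27 to 0.29. As linear ratios these intervals ran from 0.878 to 1.44 for Ntrk3, from 0.651 to 1.11 for Igf1r and from 0.830 to 1.22 for Fgfr2. The median Log2FC of all genes tested was 0.00.

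The lineage estimates moved with the technical terms of the model. With %rRNA as the only technical term the Log2FC of Ntrk3 was 0.46 ± 0.22 (SE, unadjusted p = 0.0474, FDR = 0.292 by edgeR), and with RIN in place of both terms it was -0.09. Without bHR male replicate 1, the rat with the highest %intergenic (13.5%), it was also -0.09. The lineage effect on Igf1r was a Log2FC of -0.43 without the same rat (unadjusted p = 0.0442, FDR = 0.508 by edgeR), -0.46 with RIN and -0.02 with all 24 rats. Its sign turned with %rRNA as the only technical term (0.04) and in females alone (0.11), and it was -0.03 in males alone. Mean %intergenic was 9.83% in bHRs and 10.7% in bLRs. Within males alone the Ntrk3 Log2FC was 0.35 ± 0.25 and within females alone 0.57 ± 0.37 (SE, FDR = 0.662 and 0.640 by edgeR, %rRNA as the technical term). The lineage difference did not differ between the sexes for any of the 3 genes (interaction of lineage and sex, edgeR, FDR = 1.00 each). Its estimates in females minus males were 0.20 ± 0.44 for Ntrk3, 0.18 ± 0.49 for Igf1r and -0.07 ± 0.27 for Fgfr2 (SE). No gene passed this test (0% of 13838), while 2.35% had an unadjusted p under 0.05 and the same model in limma-voom called 0. The intervals were wide, from -0.84 to 1.19 for Igf1r.

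The sex comparison gave no call for the 3 receptors either, against 0.354% of all genes. Igf1r came nearest, with a Log2FC of females vs. males of 0.44 ± 0.18 (SE, unadjusted p = 0.0238, FDR = 0.379 by edgeR) and a 95% interval from 0.06 to 0.81. Such an unadjusted p was reached by 11.2% of the genes tested. For Ntrk3 the Log2FC was 0.25 ± 0.16 (SE, FDR = 0.557), and for Fgfr2 it was -0.05 ± 0.13 (SE, FDR = 0.893). The Ntrk3 value ran from 0.12 to 0.55 over the other settings and from 0.09 to 0.36 with 1 rat left out. The estimate for Igf1r was positive under all 14 alternative settings and with each rat left out, and none of these passed FDR < 0.10. The erythroid genes Alas2, Hbb and Hba-a1 were lower in females by a Log2FC of -2.02, -2.02 and -2.20 (FDR = 0.000412, 0.00273 and 0.000405 by edgeR), and whether blood content plays a part in the Igf1r values was not tested. Hba-a1 has near-identical copies, so its counts are uncertain.

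**Figure D2:**
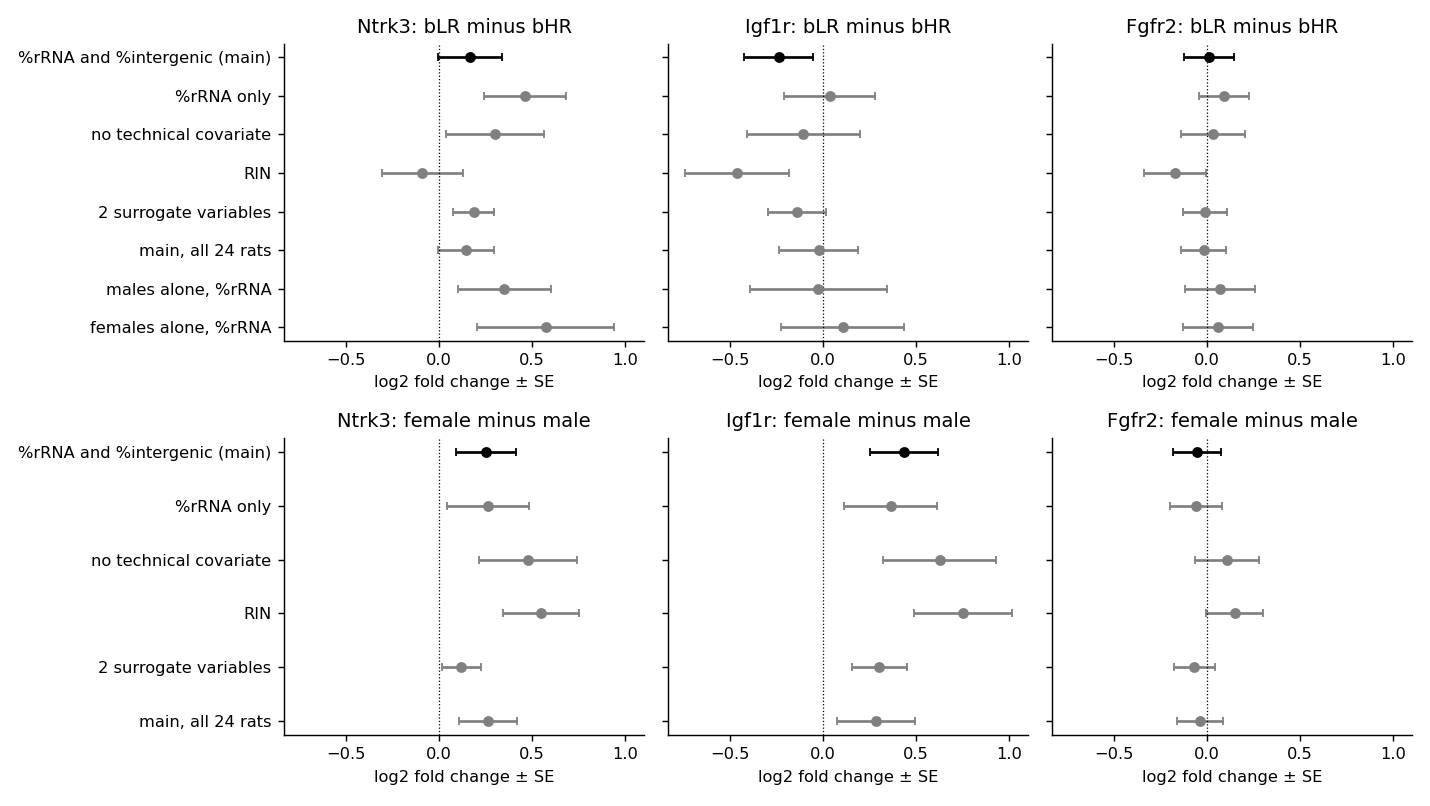
Log2 fold change ± SE (x axis) of each receptor for bLR minus bHR (upper panels) and female minus male (lower panels), with 1 point for each model setting named at the left. Black points are the values reported first. The Ntrk3 lineage estimate runs from -0.09 to 0.57 over the settings plotted, and the Igf1r sex estimate is above 0 in each.

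What separated rats of a subgroup was followed through the RNA metrics on the labels. In the model of all genes, each of the 3 receptors was lower where the share of ribosomal reads was higher, and all 3 passed FDR < 0.10 in that direction, as did 40.2% of all genes. Per percentage point of rRNA the log2 level changed by -0.48 ± 0.11 for Ntrk3, -0.59 ± 0.13 for Igf1r and -0.34 ± 0.09 for Fgfr2 (SE, FDR = 0.000334, 0.00022 and 0.00106 by edgeR). The rats spanned 1.23% to 3.98% rRNA. Per percentage point of intergenic reads Ntrk3 rose by 0.32 ± 0.07 and Igf1r by 0.35 ± 0.07 on the log2 scale (SE, FDR = 0.00042 and 0.000237 by edgeR). Fgfr2 gave 0.09 ± 0.06 (SE, FDR = 0.18), and 35.4% of all genes passed in this direction. With all 24 rats the Fgfr2 value was 0.10 and passed (FDR = 0.0375 by edgeR), and it also passed without bHR male replicate 1 (0.17, FDR = 0.0976 by edgeR). Without that rat Ntrk3 gave 0.49 and Igf1r 0.48, and with all 24 rats they gave 0.33 and 0.23.

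Correlations within subgroups covered more metrics than the model. They were taken between log2 CPM and each metric, both minus their subgroup means, over 23 rats, with two-sided permutation tests within subgroups, and 24 relations were tested together (adjusted p by Benjamini-Hochberg). Of these, 15 had an adjusted p under 0.10, as did 10 with all 24 rats, 12 without the 2 rats farthest from the median of each metric and 18 with library size alone in place of TMM. The smallest absolute r among the 15 was 0.467, which 48.2% of the same relations reached over all 13838 genes, and the median absolute r was 0.57 for the receptors and 0.45 for all genes. Of all genes, 7.11% had a larger absolute r with RIN than Ntrk3, 18.5% with concentration than Ntrk3, and 15.5% with the CV of coverage than Igf1r. For %rRNA these shares were 54.0% for Ntrk3, 48.3% for Igf1r and 48.7% for Fgfr2. These shares are descriptions without a test. The metrics can vary together, so the 24 relations are not independent. For example, bLR female replicate 3 had a concentration of 132, a CV of coverage of 0.442 and 1.45% rRNA. How the metrics relate to each other was not tested. RIN ran from 8.7 to 9.8 in the 23 rats. Ntrk3 was higher in rats with more concentrated RNA (r = 0.75, permutation p = 0.00041, adjusted p = 0.00197, rho = 0.78 with adjusted p = 0.00355, r = 0.72 without the 2 rats farthest from the median concentration). It was lower where RIN was higher (r = -0.67, permutation p = 6e-05, adjusted p = 0.00072, rho = -0.63 with adjusted p = 0.00355, r = -0.62 without the 2 farthest rats). These 2 relations held in both sexes taken alone. For concentration r was 0.77 in the 12 males (permutation p = 0.00458) and 0.76 in the 11 females (permutation p = 0.0112). For RIN r was -0.86 in males (permutation p = 0.00115) and -0.64 in females (permutation p = 0.0161).

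Igf1r was related most closely to the evenness of coverage along transcripts. Its level was lower where the median coefficient of variation (CV) of coverage was higher (r = -0.82, permutation p = 1e-05, the smallest the permutations can give, adjusted p = 0.00024, rho = -0.82 with adjusted p = 0.00048, r = -0.84 without the 2 farthest rats). The CV ran from 0.442 to 0.505 in the 23 rats. In the 12 males r was -0.80 (permutation p = 0.00341) and in the 11 females -0.84 (permutation p = 0.00092). For RNA concentration r was 0.59 (permutation p = 0.00446, adjusted p = 0.0107, rho = 0.67 with adjusted p = 0.00556, r = 0.70 without the 2 farthest rats). For RIN it was -0.55 (permutation p = 0.0066, adjusted p = 0.0144, rho = -0.57 with adjusted p = 0.0126), and without the 2 farthest rats it was -0.40 (permutation p = 0.0616, adjusted p = 0.114) and no longer passed, while it passed with each single rat left out. With all 24 rats the relation of Igf1r to RIN turned to r = 0.13, since the rat left out, with the lowest RIN, had 12 reads of Igf1r (0.524 CPM).

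Fgfr2 rose with RNA concentration (r = 0.72, permutation p = 0.00017, adjusted p = 0.00102, rho = 0.66 with adjusted p = 0.00846, r = 0.59 without the 2 farthest rats) and fell with the CV of coverage (r = -0.65, permutation p = 0.00348, adjusted p = 0.00928, rho = -0.62 with adjusted p = 0.0117, r = -0.63 without the 2 farthest rats). Neither relation passed in males taken alone. For concentration r was 0.37 in the 12 males (permutation p = 0.193) and 0.83 in the 11 females (permutation p = 0.0002), and for the CV it was -0.34 (permutation p = 0.33) and -0.82 (permutation p = 0.00581). Fgfr2 and %rRNA gave r = -0.63 over the 23 rats (permutation p = 0.00912, adjusted p = 0.0182). In males this r was -0.23 (permutation p = 0.585) and in females -0.81 (permutation p = 0.00268). The differences between the sexes in these correlations were not tested. Fgfr2 and RIN gave r = -0.47 (permutation p = 0.0404, adjusted p = 0.0646, rho = -0.41 with adjusted p = 0.104, r = -0.34 without the 2 farthest rats, permutation p = 0.223), and no longer passed without them. Counted library size showed no relation to any of the 3 genes, with r from -0.21 to 0.07 (lowest permutation p = 0.34, adjusted p = 0.408).

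**Figure D3:**
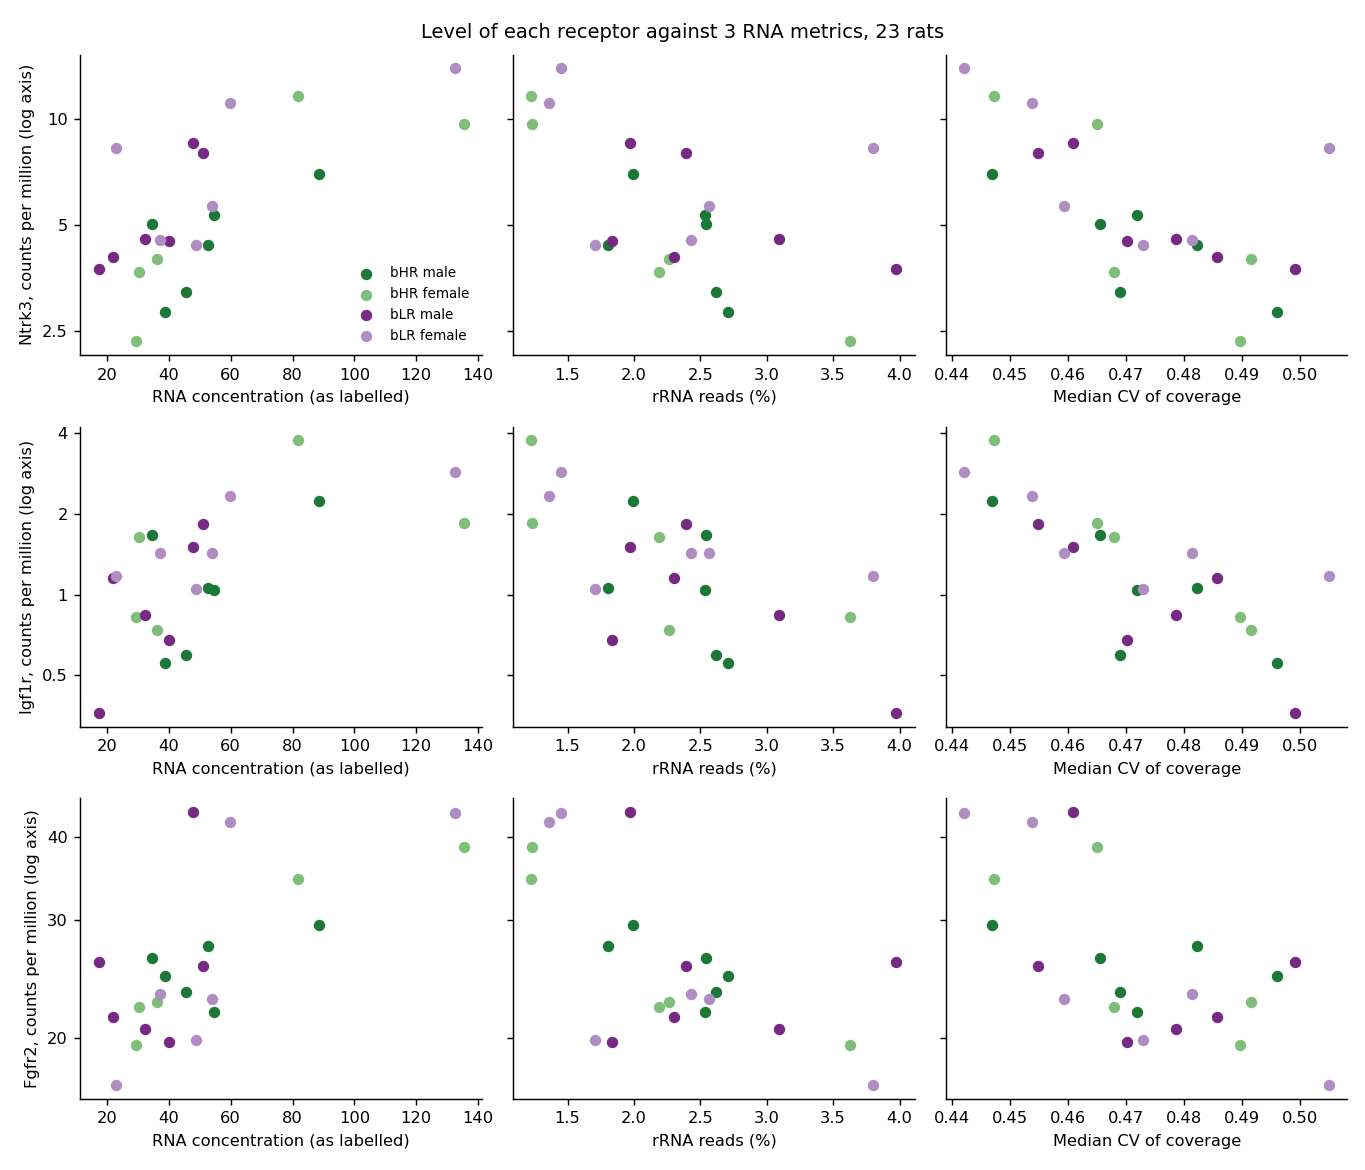
Level of each receptor (y axes, CPM, log axis) against RNA concentration as labelled, the percentage of ribosomal reads and the median CV of coverage (x axes), 1 point for each of 23 rats, colored by subgroup. The rat highest for Ntrk3 (13.9 CPM) lies at 1.45% rRNA, the rat highest for Fgfr2 (43.6 CPM) lies near the median concentration, and bLR female replicate 6 lies apart for Ntrk3, at 8.28 CPM with 3.80% rRNA.

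The levels of the 3 receptors were correlated across rats, at sizes that were common among all genes. After subgroup means were removed, Ntrk3 and Igf1r had r = 0.82 over 23 rats (permutation p = 4e-05, adjusted over 3 pairs p = 0.00012, rho = 0.79, r = 0.75 without the 2 rats farthest from the median of Ntrk3). Ntrk3 and Fgfr2 had r = 0.75 (permutation p = 0.00065, adjusted p = 0.000975, rho = 0.67, r = 0.68 without the 2 farthest rats). Igf1r and Fgfr2 had r = 0.62 (permutation p = 0.00237, adjusted p = 0.00237, rho = 0.63, r = 0.68 without the 2 farthest rats). Of the relations of all genes to the 3 receptors, 56.4% had an absolute r at or above the smallest of these 3. With Ntrk3, 11.2% of genes had a higher r than Igf1r and 19.3% a higher r than Fgfr2, and with Igf1r 31.2% had a higher r than Fgfr2. Of the 4 rats highest for each gene, bLR female replicates 2 and 3 were among the 4 for all 3 genes.

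After %rRNA and %intergenic were taken out, 1 of the 3 pairs, Ntrk3 and Fgfr2, still passed. Between residuals of the lineage model r was 0.39 for Ntrk3 and Igf1r (permutation p = 0.068, adjusted p = 0.102), 0.52 for Ntrk3 and Fgfr2 (permutation p = 0.0107, adjusted p = 0.032) and 0.16 for Igf1r and Fgfr2 (permutation p = 0.491, adjusted p = 0.491). The permutations moved residuals without refitting the model, so these p can be too small. With library size alone in place of TMM the same pairs, with subgroup means removed, gave r = 0.90, 0.89 and 0.84. Ranked by likeness to Ntrk3 in these residuals among the other 1978 tested genes with a symbol, Fgfr2 stood at place 321 and Igf1r at place 496. Among the genes most like Ntrk3 were Fbxo46 (r = 0.91) and Numbl (r = 0.91), each with r of 0.97 between subgroup-centred values. Among those most like Igf1r were Atxn2l (r = 0.79) and Trio (r = 0.78), with 0.94 and 0.81 between subgroup-centred values. Those most like Fgfr2 were Jakmip3 (r = 0.86), Atg2a (r = 0.84) and Dpy19l3 (r = 0.83), with 0.92, 0.80 and 0.87. These are descriptions over 23 rats, restricted to genes for which a symbol was available, which need not represent the genome.

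**Figure D4:**
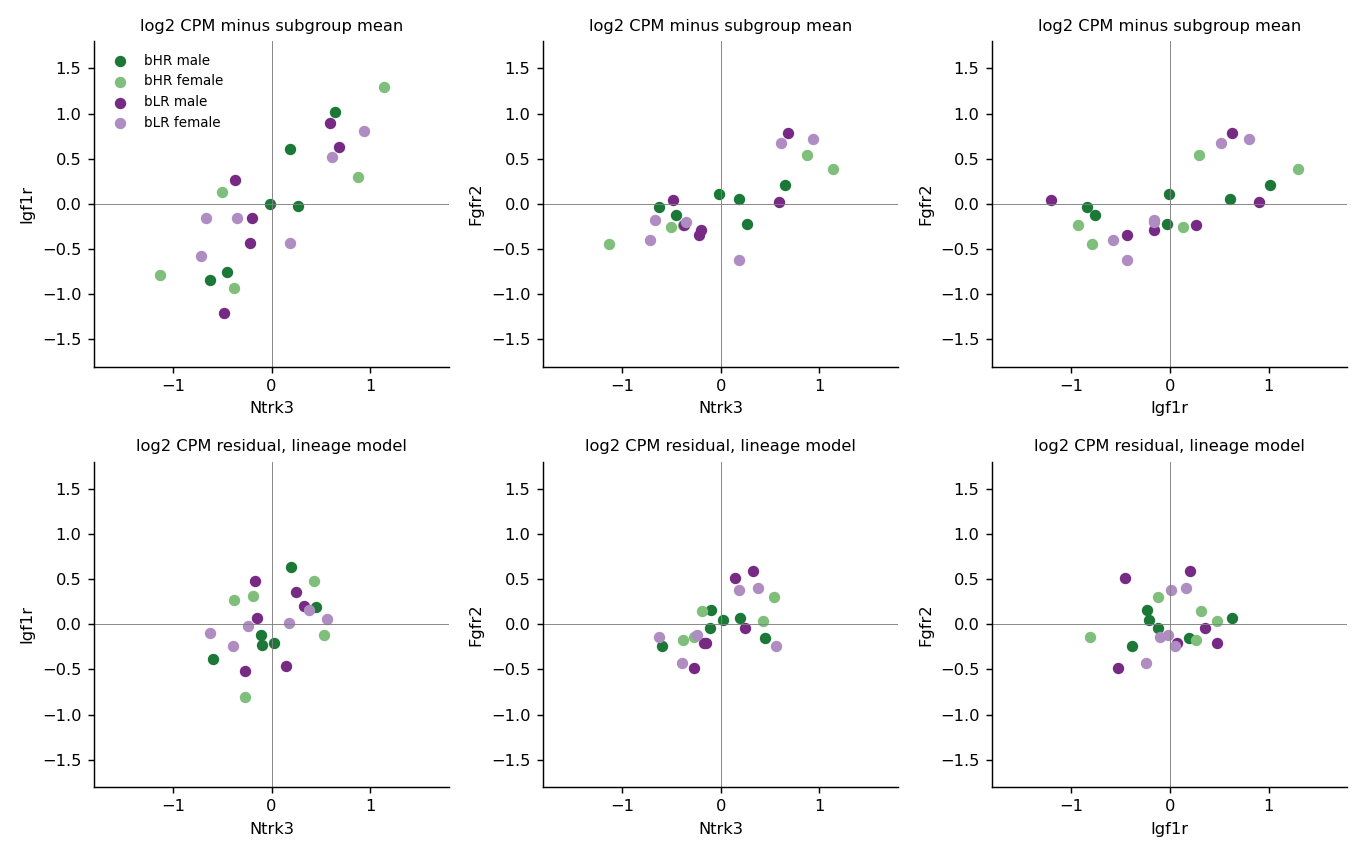
Pairs of receptors in 23 rats (x and y axes, log2 CPM), as deviations from the subgroup mean (upper panels) and as residuals of the lineage model with %rRNA and %intergenic (lower panels). Points are rats, colored by subgroup, and the tight upper cloud of Ntrk3 and Igf1r (r = 0.82) becomes a loose one below (r = 0.39).

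Of 33 relations between the 3 receptors and the 11 cell type markers (n = 23, subgroup means removed), a comparison added after the data were seen, 22 had an adjusted permutation p under 0.10. The smallest absolute r among them was 0.445, which 54.4% of the relations of all genes to these markers reached. The median absolute r over the 33 relations was 0.574, and 0.479 over all genes, given as a description without a test. Rbfox3 had r = 0.88 with Ntrk3, 0.91 with Igf1r and 0.705 with Fgfr2 (permutation p = 1e-05, 1e-05 and 0.00032, the first pair being the smallest the permutations can give, adjusted p = 6.6e-05, 6.6e-05 and 0.00096, rho = 0.82, 0.90 and 0.66). Mag, of oligodendrocytes, had r = 0.87, 0.84 and 0.81 (permutation p = 1e-05, 1e-05 and 0.00013, adjusted p = 6.6e-05, 6.6e-05 and 0.000477, rho = 0.85, 0.88 and 0.70). The astrocyte markers differed among themselves, with r from 0.64 to 0.86 for Aqp4 and Gfap and from -0.42 to -0.05 for Slc1a3. Hbb had r = -0.76, -0.81 and -0.63 with the 3 genes (permutation p = 0.00065, 5e-05 and 0.00201, adjusted p = 0.00179, 0.000236 and 0.00474, rho = -0.71, -0.80 and -0.63). Without the 2 rats farthest from the median of the marker, r stayed at 0.81 or above for Rbfox3, at 0.70 or above for Mag and at -0.50 or below for Hbb. The other erythroid genes had r from -0.60 to -0.50 (Alas2) and from -0.57 to -0.45 (Hba-a1), which became -0.45 to -0.33 and -0.36 to -0.23 without the 2 rats. Igf2 had r from -0.51 to -0.36 and passed with Igf1r alone. Folr1 (r from -0.41 to -0.20), Tcf7l2 (r from -0.04 to -0.01) and Slc1a3 passed with none of the 3. In residuals of the lineage model the r with Rbfox3 was 0.61, 0.62 and 0.27, and that with Hbb -0.33, -0.42 and -0.15. There the r with Mag was 0.58, 0.43 and 0.63, that with Aqp4 0.57, 0.48 and 0.51, and that with Gfap 0.03, 0.37 and 0.07. The part of cell composition or blood in the receptor levels was not tested.

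Relations to behavior were examined within each line, since the lines did not overlap in LocoScore. None of the 24 relations of the 3 genes to total LocoScore and 3 measures of the elevated plus maze (EPM, an arena with open and closed arms) had an adjusted p under 0.10. In bHRs (11 rats, sex means removed) the r with time spent immobile on the maze was negative for all 3 receptors, without passing the adjustment. For Ntrk3 r was -0.80 (permutation p = 0.0144, adjusted p = 0.278, rho = -0.82, r = -0.60 without the 2 farthest rats). For Igf1r it was -0.70 (permutation p = 0.0333, adjusted p = 0.278, rho = -0.71, r = -0.49 without the 2 farthest rats), and for Fgfr2 -0.67 (permutation p = 0.0951, adjusted p = 0.285, rho = -0.67, r = -0.32 without the 2 farthest rats). After adjustment for %rRNA and %intergenic within the line these became -0.50, -0.34 and -0.12 (permutation p = 0.143, 0.269 and 0.69). In bLRs (12 rats) the same relation had r from -0.44 to -0.18 (lowest permutation p = 0.127), and 0.35, 0.39 and 0.41 after the same adjustment (lowest permutation p = 0.233).

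Of the other behaviors in bHRs, time in the open arms had r = -0.71 with Ntrk3 (permutation p = 0.0514, adjusted p = 0.278, rho = -0.64, r = -0.53 without the 2 farthest rats), and -0.70 after adjustment for %rRNA and %intergenic (permutation p = 0.0286). Distance traveled on the maze had r = 0.59 with Fgfr2 in bHRs (permutation p = 0.0416, adjusted p = 0.278, rho = 0.66). Without the 2 farthest rats it was 0.52 and passed (permutation p = 0.00247, adjusted p = 0.0593). LocoScore, on which the lines were selected, had r from 0.45 to 0.59 in bHRs (lowest permutation p = 0.0751) and from -0.28 to 0.02 in bLRs (lowest permutation p = 0.361). Without the 2 bHRs farthest from the median LocoScore, the r of Ntrk3 was -0.08, that of Igf1r 0.06 and that of Fgfr2 0.29, so the values of Ntrk3 and Igf1r rested on those rats. With the sum of lateral and rearing scores in place of the labelled total, chosen after the data were seen, r ran from 0.50 to 0.61 in bHRs (lowest permutation p = 0.0615) and from -0.28 to -0.06 in bLRs. Within bLRs the r of Igf1r with the labelled LocoScore was 0.02, and 0.78 after adjustment (permutation p = 0.00291, adjusted p = 0.0698). The adjusted value was taken with the labelled total alone. Here and above, p after adjustment for %rRNA and %intergenic came from permuted residuals, without refitting the covariates, and can be too small. The value of 0.78 is therefore not read as a relation that passed.

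**Figure D5:**
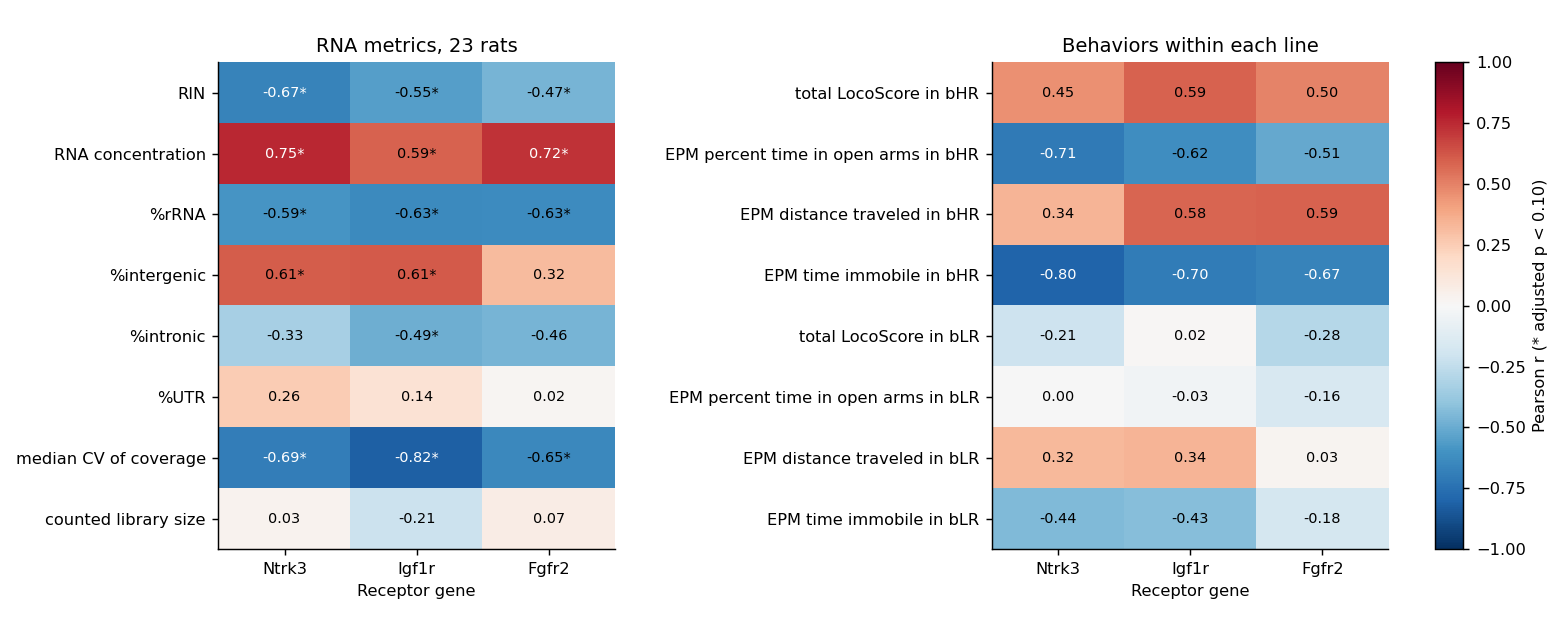
Pearson r of each receptor (columns) with 8 RNA metrics over 23 rats (left) and with 4 behaviors within bHRs and bLRs (right), red for positive and blue for negative, with an asterisk where the adjusted permutation p is under 0.10. Asterisks mark 15 of the 24 relations to RNA metrics and none of those to behavior.

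The wider signaling genes were described from lists of the 3 families and of their shared cascade. A symbol could be matched for 23 of the 132 listed genes, the 3 receptors among them, and all 23 passed the filter on low counts. The other Trk receptors, the other FGF receptors, and Igf1 were not among the genes matched and were not analysed here, so the lists cover the families in part. The receptors were matched through chromosome 1 genes, and further symbols came from the study's results for sex. The matched genes therefore need not represent the families. Against the 1.34% called of all genes for lineage and 0.354% for sex, 1 of the 23 passed for lineage and none for sex.

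Of the neurotrophin list 4 of 15 genes were found, and none passed for lineage (median Log2FC of bLRs vs. bHRs 0.20, against 0.00 over all genes). Sorcs3, a sorting receptor of the sortilin family, had a Log2FC of 0.36 ± 0.16 (SE, unadjusted p = 0.0281, FDR = 0.408 by edgeR). Slitrk5, a membrane protein of synapses, had 0.23 ± 0.14 (SE, FDR = 0.637), and Sorcs1, related to Sorcs3, had -0.19 ± 0.19 (SE, FDR = 0.807). In this list 3 genes passed as lower with more rRNA, Ntrk3 among them, and all 4 as higher with more intergenic reads, against 40.2% and 35.4% of all genes. In the insulin-like growth factor list 1 of 4 passed as lower and 2 as higher with more rRNA, where 36.2% of all genes were higher, and 3 as higher with more intergenic reads. In the fibroblast growth factor list 3 of 5 passed as lower with more rRNA and 1 as higher with more intergenic reads.

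Of the insulin-like growth factor list 4 of 26 genes were found, with no call and a median Log2FC of 0.12. Igf2r, which binds IGF2 and carries it to lysosomes without signaling through a kinase, had a Log2FC of 0.24 ± 0.18 for lineage (SE, FDR = 0.717) and 0.16 ± 0.17 for sex (SE, FDR = 0.730). Sh2b1, an adaptor of insulin and growth factor receptors, had 0.07 ± 0.10 for lineage (SE, FDR = 0.863). Igf2, a ligand of Igf1r that is abundant in meninges and choroid plexus, ran from 19.3 to 260 CPM, with a lineage Log2FC of 0.17 ± 0.41 (SE, FDR = 0.936).

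Of the fibroblast growth factor list 5 of 47 genes were found, and Fgf10, a ligand of Fgfr2, was the only one to pass. Its Log2FC of bLRs vs. bHRs was -0.62 ± 0.17 (SE, FDR = 0.0989 by edgeR), at 0.835 to 3.97 CPM over the 23 rats. This call lay at the threshold. It was lost under 7 of 16 other settings, with FDR from 0.0256 to 0.64, and on leaving out any of 17 of the 23 rats, and the direction was kept in all of them. Its receptor Fgfr2 did not differ between the lines, at 0.01 ± 0.14. Flrt1, a membrane protein that binds FGF receptors, had a Log2FC of 0.30 ± 0.18 for lineage (SE, FDR = 0.627) and 0.55 ± 0.17 for sex (SE, unadjusted p = 0.00387, FDR = 0.246 by edgeR). Fgfbp3, a carrier of FGFs, had 0.13 ± 0.11 for lineage (SE, FDR = 0.742).

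Of the shared cascade 10 of 44 genes were found, and none passed for lineage (median Log2FC -0.03) or sex (median -0.15). The smallest lineage p belonged to Akt2, a kinase downstream of PI3 kinase, at -0.27 ± 0.14 (SE, unadjusted p = 0.0624, FDR = 0.536 by edgeR). Pik3r1, a regulatory subunit of PI3 kinase, had 0.13 ± 0.08 (SE, FDR = 0.637), and Rictor, of the mTORC2 complex, had -0.28 ± 0.19 (SE, FDR = 0.67). With more rRNA 6 of the 10 passed as lower, Akt2 and Rictor among them, against 40.2% of all genes, and 2 as higher, Hras and Rasa1, against 36.2%. With more intergenic reads 3 of the 10 passed as higher and 2 as lower, against 35.4% and 33.4%.

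On chromosome 1 the 2 nearest tested genes with a symbol on each side of each receptor were read, 12 in all, at 48880 to 2575288 bases. Genes without a symbol can lie nearer. None of the 12 passed for lineage or sex. Synm and Ttc23, 202918 and 237073 bases from Igf1r on the side of lower coordinates, had the smallest lineage p. Their Log2FC were 0.55 ± 0.17 and -0.35 ± 0.11 (SE, FDR = 0.159 and 0.213 by edgeR), in opposite directions. Sec23ip, 380576 bases from Fgfr2, had 0.27 ± 0.10 (SE, FDR = 0.30). The 4 genes read for Ntrk3 ran from -0.02 to 0.13, and Klhl25 and Akap13 among them lie 2531488 and 2575288 bases away.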

How the data were processed

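Hippocampal poly-A RNA of 24 rats was sequenced. The authors aligned reads to Rnor6 with STAR 2.7.3a and counted unique hits per gene, by strand, with Subread 2.0.0 (Ensembl v103). The deposited values are these raw counts, which were used as deposited. Symbols and positions came from the study's annotation, and further symbols from its results for sex, so that 1985 of 32883 genes had a symbol here. RNA metrics and behavior came from the labels.

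A gene was tested if it reached 1 CPM in 6 or more of the 23 rats (25%), a filter that 13838 genes passed. Lineage and sex were tested with edgeR 4.0.16 (R 4.3.3, TMM, quasi-likelihood test) with %rRNA and %intergenic as covariates, and their interaction with %rRNA, at FDR < 0.10 over all genes tested (Benjamini-Hochberg). The bHR female labelled as low RIN was left out. Correlations used log2 CPM with a prior count of 2 and 100000 permutations (scipy 1.17.1, numpy 2.4.6). Alternatives used limma 3.58.1, DESeq2 1.42.0 and sva 3.50.0, other scalings, filters and covariates, all 24 rats, and each rat left out in turn. The fits were tested on simulated data. Intervals on counts (95%, exact Poisson) cover counting error only.

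The labels pair 1 male and 1 female per family. Over 11 such pairs the correlation of deviations from subgroup means ran from -0.725 to 0.78, above 0.1 in 6, and the family correlation in the fit was 0.00852. Named were the 3 receptors, the other receptors, called genes and 3 smallest lineage p of each list, the 3 genes most like each receptor (some of which are not reported here) and the 2 nearest genes on each side. Members and lists were chosen with earlier results of these data known. Levels were not compared between genes, since lengths were not used here.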

Additional observations from a re-analysis of the deposited data

Results flagged for a closer look

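The Fgfr2 level of bLR male replicate 2, at 43.6 CPM, stood apart from the other 5 bLR males, with a gap of 0.738 of the range of the 6 rats to the nearest. It was 1 of 12 sets of subgroup levels examined in this way, and chance marks about 1 in 20.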

How the results depend on the processing

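No lineage, sex or interaction call on Ntrk3, Igf1r or Fgfr2 was made under any setting, and the fitted %rRNA effects on all 3 kept their calls under 3 of 3 alternatives. Several estimates changed sign, not all of them near 0 in the main fit, and the cause was not tested. For lineage, Ntrk3 was -0.0883 with RIN as covariate, Igf1r was 0.0354 with %rRNA alone and 0.106 in females alone, and Fgfr2 was -0.0268 with limma-voom, -0.0184 with all 24 rats, -0.17 with RIN, -0.0122 with 2 surrogate variables and -0.0275 with the family block. For sex, Fgfr2 was 0.105 without technical covariates, 0.148 with RIN and 0.0274 with the block, which changed no call of the 3 genes. The interaction with %intergenic added was -0.0989 for Ntrk3 and -0.171 for Igf1r, and with all 24 rats -0.124 for Ntrk3. The %intergenic effect on Fgfr2 passed with all 24 rats at 0.104.

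Leaving out 1 rat at a time moved the lineage effect over -0.0865 to 0.266 for Ntrk3, where bHR male replicate 1 alone turned the sign, -0.434 (without bHR male replicate 1) to -0.146 (without bHR female replicate 1) for Igf1r, and -0.107 to 0.11 for Fgfr2. The sex effect on Fgfr2 ran over -0.114 to 0.0969, and its %intergenic effect over 0.0449 to 0.167, the latter without bHR male replicate 1. The interaction ran over -0.116 to 0.388 for Ntrk3, -0.104 to 0.449 for Igf1r and -0.236 to 0.0567 for Fgfr2. Among all genes, the lineage calls (185) became 329 with DESeq2, 294 with all 24 rats, 56 without technical covariates, 47 with RIN, 526 with 2 surrogate variables, 18 in males alone, 8 in females alone, 97 without bHR male replicate 1 and 436 without bHR female replicate 6. The sex calls (49) ran from 13 without technical covariates to 171 with 2 surrogate variables, with 138 by DESeq2, 21 with library size alone, 18 with %rRNA alone, 17 with RIN and 19 with the block, and over 18 to 159 without 1 rat.

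Relations to RNA metrics that turned sign were, with all 24 rats, those of Igf1r to RIN (0.126) and to %UTR (-0.0944), and, without the 2 rats farthest from the median, that of Ntrk3 to library size (-0.0342). Without 1 rat r ran over -0.126 to 0.131 for Ntrk3 and library size, -0.0527 to 0.157 for Fgfr2 and library size, and -0.118 to 0.215 for Fgfr2 and %UTR. With all 24 rats the calls of Ntrk3 with %rRNA and with the CV of coverage were among those lost (adjusted p = 0.179 each), and without 1 rat 14 to 17 relations were called. Calls among the 24 relations to behavior numbered 1 without the 2 farthest rats (Fgfr2 with distance in bHRs) and 1 (Igf1r with LocoScore in bLRs) after adjustment for %rRNA and %intergenic. The p of the latter came from permuted residuals and can be too small. Calls numbered 0 to 2 without 1 rat, with 2 without bHR male replicate 6 and 1 without bHR female replicate 6. Between the receptors 1 of the 3 pairs was called in residuals of the lineage model, where the permutation p can be too small.

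Behavior relations that turned sign without the 2 farthest rats were LocoScore with Ntrk3 in bHRs (-0.0836), LocoScore in bLRs with Ntrk3 (0.0615) and Igf1r (-0.0951), open arm time in bLRs with Ntrk3 (0.464), Igf1r (0.45) and Fgfr2 (0.42), and distance in bLRs with Ntrk3 (-0.0968) and Fgfr2 (-0.179). With library size alone they were, in bLRs, open arm time with Ntrk3 (0.04998) and Igf1r (0.0111) and LocoScore with Igf1r (-0.0746, and -0.0614 with the sum of its parts). After adjustment for %rRNA and %intergenic they were, for Ntrk3 in bHRs, LocoScore (-0.178) and distance (-0.282), and in bLRs LocoScore with Ntrk3 (0.198), open arm time with Ntrk3 (0.176) and Igf1r (0.0464), distance with Ntrk3 (-0.577), Igf1r (-0.492) and Fgfr2 (-0.617), and time immobile with Ntrk3 (0.351), Igf1r (0.389) and Fgfr2 (0.413). Without 1 rat, in bLRs, r of open arm time ran over -0.118 to 0.133 for Ntrk3, -0.341 to 0.0662 for Igf1r and -0.353 to 0.000791 for Fgfr2, that of distance over -0.127 to 0.525 for Igf1r and -0.0811 to 0.126 for Fgfr2, and that of LocoScore over -0.214 to 0.211 for Igf1r. Few reads limit Igf1r most, at 5 to 117 per rat.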

Other observations

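The bHR female left out for low RIN had 227 reads of Ntrk3 (9.91 CPM), 12 reads of Igf1r (0.524 CPM) and 648 reads of Fgfr2 (28.3 CPM). Its Ntrk3 level lay above that of each bHR female used except replicate 1, and its Igf1r level lay below all 5.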
